A study of Homo sapiens with 27 samples.

Results

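The change in messenger RNA over 24 h of culture was measured in MDA-MB-231, an established line of human breast cancer cells with mesenchymal features, by setting 3 arrays of 24 h against 3 arrays of 0 h. The arrays form 3 treatment series with 1 array at each time: cells given 5SGlcNAc at 50 µM, cells given Thiamet-G at 25 µM, and cells given the vehicle DMSO. All groups were grown in DMEM with 10% fetal bovine serum. The arrays were chosen from the labels alone, as the 24 h and 0 h arrays matched within each series. They make up 6 of the 27 arrays of the whole study, and a further 12 arrays of 2, 4, 6 and 8 h entered the estimate of the spread. The 9 arrays of 48 h were not used. The cells are 1 established line, and nothing in the labels says that the arrays came from separate cultures, so a p-value here reflects nothing more than how far these arrays scatter, and that scatter may be technical.

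5SGlcNAc inhibits O-GlcNAc transferase (OGT), the enzyme that attaches single N-acetylglucosamine residues to serine and threonine of nuclear and cytosolic proteins. Thiamet-G inhibits O-GlcNAcase (OGA), which removes them. Cells in a closed dish also consume nutrients, condition their medium, grow denser and move through the cell cycle, and each of these is known to change transcription. The DMSO series is the one in which time passes without an inhibitor, so its change is given beside the mean of the 3 series throughout. The labels do not say when vehicle or inhibitor was added to the 0 h arrays, so what an inhibitor series' change from 0 h spans is not settled.

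Values are deposited log2 levels, and a change is the 24 h level minus the 0 h level of the same series on that scale. Over all 22277 probe sets, controls included, the 0 h arrays correlated with each other at 0.9983 to 0.9987. On the same basis the 24 h arrays correlated with each other at 0.9961 to 0.9974, and 24 h arrays with 0 h arrays at 0.9953 to 0.9968. Medians of the 6 arrays of 0 and 24 h lay between 7.43, on the 5SGlcNAc array of 24 h, and 7.51, and the highest of all 18 was 7.53 in 5SGlcNAc at 6 h. The difference between the 3′ and 5′ probe sets of ACTB, a sign of RNA quality, was 0.50 to 0.62 on the 24 h arrays and 0.59 to 0.81 on the 0 h arrays, but 1.64 in DMSO and 1.24 in Thiamet-G at 4 h. Of 14 mesenchymal breast cancer line markers, 2 lay below the 40th percentile of all genes, as did 9 of 20 luminal epithelial markers. VIM, the mesenchymal filament vimentin, stood at 14.88, 14.89 and 14.89 at 24 h in the 5SGlcNAc, Thiamet-G and DMSO series, against 14.86, 14.89 and 14.86 at 0 h. In the test described below, 1 of the 14 mesenchymal markers, S100A4, fell, by 0.75 (7.14%, against 5.14% of all genes). None of the 14 rose (against 4.83%), and the list median was 0.10. PTPRC, the leukocyte antigen CD45, stood at 3.75 to 3.94 at 24 h and 3.74 to 3.88 at 0 h, and 10 of 11 haematopoietic markers lay below the 40th percentile of all genes. The summed level of that list was 9.46 to 9.52 at 24 h and 9.42 to 9.49 at 0 h.

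Over all 3 series, 578 genes were higher at 24 h, which is 4.83% of the 11963 tested, and 615 were lower, which is 5.14% (limma over the 18 arrays of 0 to 24 h, series as a block, Benjamini-Hochberg adjusted p under 0.05). Of these 1193 genes, 1191 changed in one direction in all 3 series, the exceptions being DNAJC4 and TMOD2. The genes were chosen by their change over the same 3 series, so a shared direction and separated arrays are largely built into the choice. Falls were the larger changes. Past 1.5-fold there were 80 falls and 25 rises, and past 2-fold 18 falls and 2 rises. The median change of the genes that fell was -0.40 in the 5SGlcNAc series, -0.31 in the Thiamet-G series and -0.31 in the DMSO series, and that of the genes that rose was 0.29, 0.29 and 0.32. Over all genes these medians were -0.01, 0.02 and 0.01. All 3 arrays of 24 h lay above all 3 of 0 h for 1632 genes (13.6%) and below them for 1519 (12.7%), which included 1161 of the 1193. The median standard error of a change was 0.080. Leaving out the 5SGlcNAc series gave 129 rises and 136 falls, leaving out Thiamet-G gave 180 and 246, and leaving out DMSO gave 104 and 220, each from 12 arrays.

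The DMSO series shares no array with the inhibitor series and was set against them, although arrays of one time may share a culture or a day. In the inhibitor series alone, 104 genes (0.869%) were higher at 24 h and 220 (1.84%) were lower. Of those 104, 99 were also above their 0 h level in DMSO, with a median change of 0.45 in the inhibitor series and 0.40 in DMSO. Of the 220, 214 were also below it in DMSO, with medians of -0.52 and -0.40. Over all genes the sign was shared by 66.4% of those above 0 and 63.4% of those below 0 in the inhibitor series. The 11 genes that went the other way in DMSO were ADAMTS5, C1QB, COQ9, DNAJC4, FGF2, IFT46, ODAM, ONECUT1, PDK2, RBFOX1 and SLC44A1, named after their values were seen. C1QB, a complement subunit, averaged a change of 0.38 in the inhibitor series and -0.62 in DMSO. Tested alone, with the spread taken from 2 to 8 h, the 5SGlcNAc series gave 308 genes (2.57%), the Thiamet-G series 121 (1.01%) and the DMSO series 74 (0.619%), of which 22 were higher and 52 lower. These counts come from 1 pair of arrays each and do not show that the series differ.

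**Figure D1:**
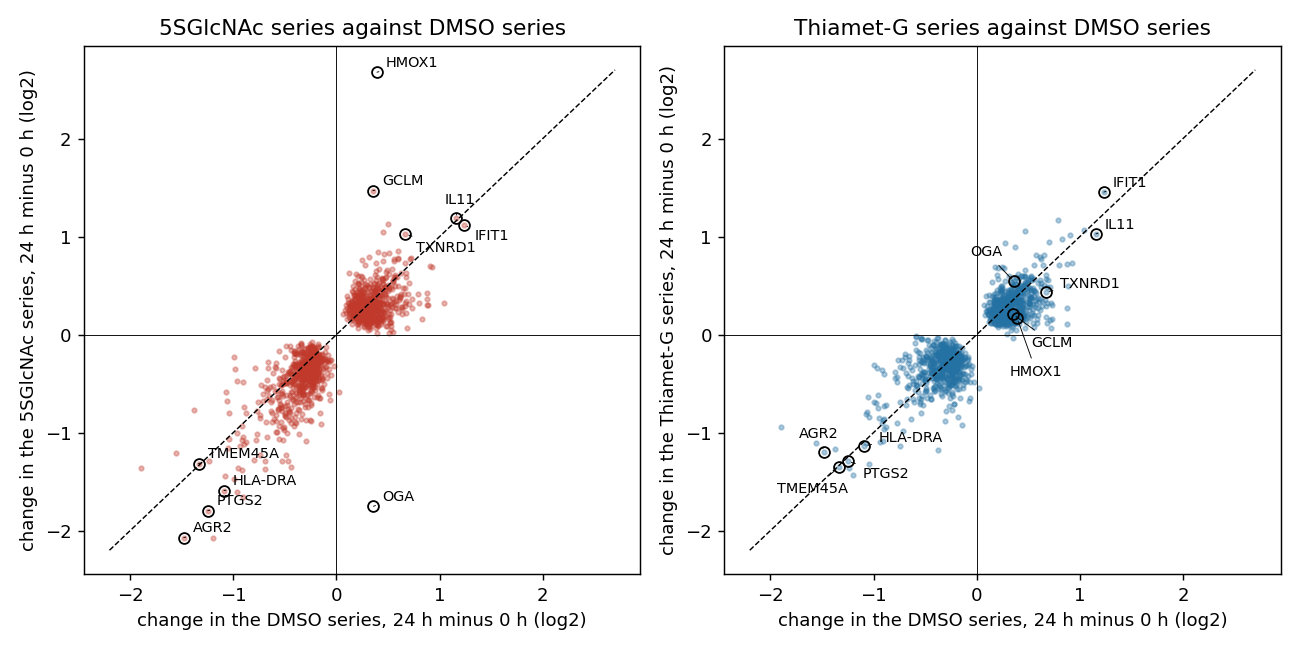
Change from 0 h to 24 h (log2) of the 1193 genes past the threshold, in the DMSO series on the horizontal axis and in each inhibitor series on the vertical axis. HMOX1 and OGA, which were not past the threshold, are labelled beside leading genes, and HMOX1 lies at 2.68 in the 5SGlcNAc series and 0.39 in DMSO.

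The 15 largest falls and the 15 largest rises were chosen by their mean change over the 3 series among genes moving one way in each, so their DMSO change is part of what chose them and is given as a description. The falls ranged from -1.58 to -1.06, and 13 of the 15 also passed the threshold in the DMSO series alone, where their changes were -1.90 to -0.90. The rises ranged from 0.64 to 1.27, and 4 of the 15 passed in DMSO alone, where their changes were 0.35 to 1.23.

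**Figure D2:**
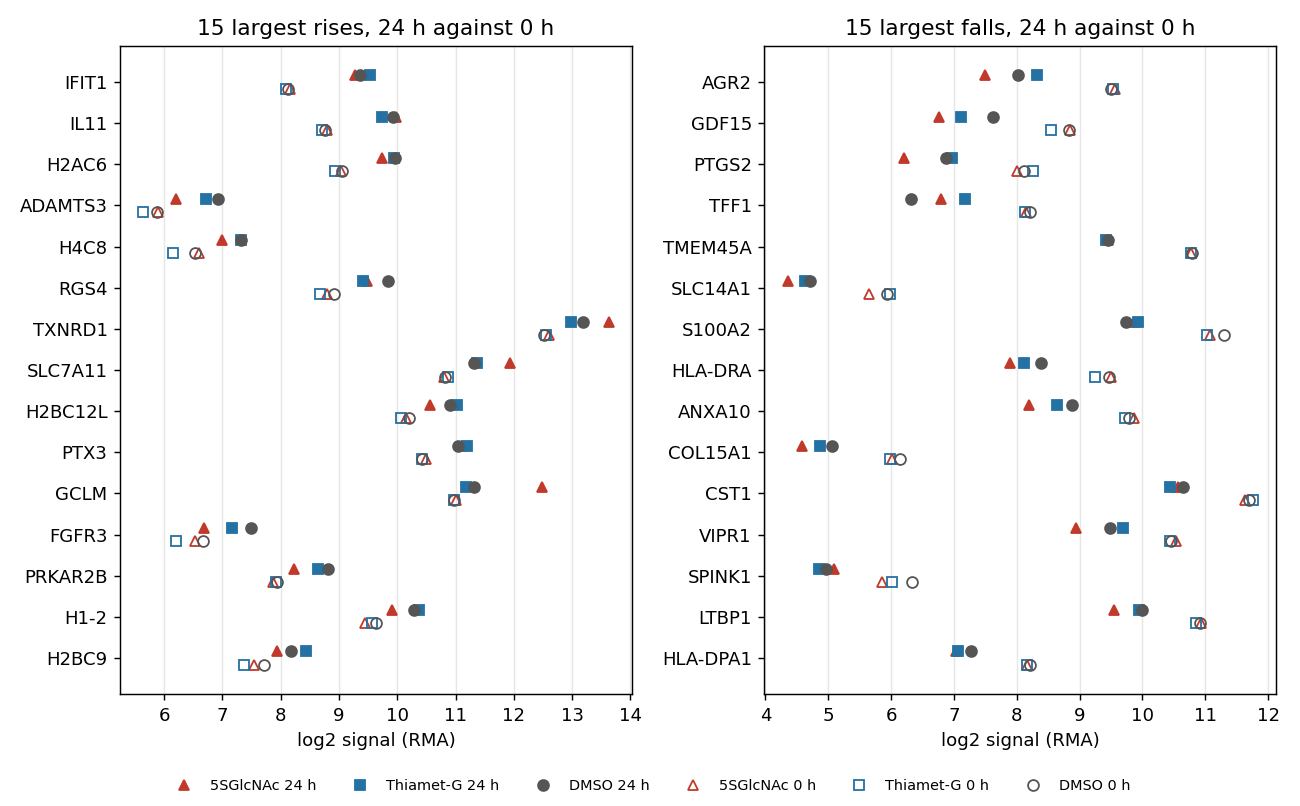
Log2 level on each of the 6 arrays for the 15 genes with the largest rise and the 15 with the largest fall, filled symbols for 24 h and open symbols for 0 h, with one symbol per treatment series. Filled and open symbols separate in every row of these genes, which were chosen for their change, and the 0 h symbols lie closer together than the 24 h symbols for AGR2 and GDF15.

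AGR2, an endoplasmic reticulum disulfide isomerase that is also secreted, stood at 7.50, 8.33 and 8.02 at 24 h in the 5SGlcNAc, Thiamet-G and DMSO series, against 9.57, 9.53 and 9.50 at 0 h. Its level was lower at 24 h in every series and lowest under 5SGlcNAc. The mean change of the 3 series was -1.58 ± 0.13 (limma SE, limma adjusted p = 5.84e-06). Every ± value in these results is the SE of the limma fit, with the spread taken over all arrays of 0 to 24 h. It is not the spread of the 3 series changes, which for AGR2 were -2.07, -1.20 and -1.48. TFF1, a trefoil peptide of mucous epithelia, stood at 6.79, 7.18 and 6.31 at 24 h, against 8.15, 8.13 and 8.21 at 0 h. Here the lowest 24 h level was in DMSO, and the mean change was -1.40 ± 0.14 (limma adjusted p = 2.73e-05). TFF2 fell by 0.57, whereas TFF3 did not pass the test. GDF15, a stress-induced cytokine of the TGF-beta superfamily, stood at 6.77, 7.11 and 7.63 at 24 h and at 8.85, 8.55 and 8.82 at 0 h, with a mean change of -1.57 ± 0.16 (limma adjusted p = 4.49e-05). A dimmer second probe set of GDF15 changed by 0.08, so this fall rests on 1 probe set.

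TMEM45A, a membrane protein, had the smallest p of all genes. It stood at 9.46, 9.42 and 9.45 at 24 h in the 5SGlcNAc, Thiamet-G and DMSO series, against 10.77, 10.77 and 10.79 at 0 h, a mean change of -1.34 ± 0.07 (limma adjusted p = 5.63e-08). The 3 series could not be told apart in this gene: the 5SGlcNAc change minus the DMSO change was 0.02 (95% interval -0.37 to 0.41), and that for Thiamet-G was -0.02 (-0.40 to 0.37). S100A2, a calcium-binding EF-hand protein, stood at 9.87, 9.92 and 9.73 at 24 h and at 11.08, 11.02 and 11.29 at 0 h. Its mean change was -1.29 ± 0.09 (limma adjusted p = 7.23e-07), and the fall in DMSO, 1.56, exceeded those in the inhibitor series. SLC14A1, a urea transporter, ANXA10, an annexin, and COL15A1, a basement membrane collagen, fell by 1.30, 1.22 and 1.21. VIPR1, a receptor for vasoactive intestinal peptide, fell by 1.10.

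Families of these genes were gathered after their values were seen, so their counts describe the families and support nothing. For comparison, 5.14% of all genes fell and 4.83% rose. Of 10 cystatins, extracellular or cytosolic inhibitors of cysteine proteases, 4 fell and none rose, with a median change of -0.27. The salivary-type members moved most. CST1 stood at 10.57, 10.44 and 10.65 at 24 h in the 5SGlcNAc, Thiamet-G and DMSO series, against 11.64, 11.76 and 11.69 at 0 h, a mean change of -1.14 ± 0.07 (limma adjusted p = 5.74e-07). CST2 and CST4 fell by 0.97 each and CST3 by 0.42. CST1, CST2 and CST4 are close in sequence, so their probe sets may share signal. Of 3 SPINK serine protease inhibitors, SPINK1 and SPINK4 fell by 1.10 and 0.90. Of 18 S100 genes, S100A2, S100P, S100A3 and S100A4 fell and none rose, with a family median of -0.07. S100A4, which is tied to cell motility and is also on the mesenchymal marker list, stood at 12.22, 12.36 and 12.32 at 24 h and at 13.04, 13.04 and 13.06 at 0 h.

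Genes of antigen presentation were a further family gathered after the values were seen. MHC class II molecules present peptides from outside the cell and are loaded with the help of the invariant chain CD74 and of HLA-DM, while class I molecules present peptides that the proteasome cuts inside the cell. Of 16 class II and chaperone genes measured, 8 fell and none rose, against 5.14% and 4.83% of all genes, with a median change of -0.25. HLA-DRA, the class II alpha chain, stood at 7.90, 8.11 and 8.39 at 24 h in the 5SGlcNAc, Thiamet-G and DMSO series, against 9.49, 9.24 and 9.48 at 0 h, a change of -1.27 ± 0.11 (limma adjusted p = 9.39e-06). CD74 stood at 9.50, 9.57 and 9.51 at 24 h and at 10.16, 10.22 and 10.18 at 0 h, a change of -0.67 ± 0.05 (limma adjusted p = 4.1e-06). The 24 h levels of both genes lay below the 0 h levels in every series, and those of CD74 fell by nearly the same amount in each, 0.66, 0.66 and 0.68. HLA-DPA1 fell by 1.06, HLA-DMA by 0.76, HLA-DRB1 by 0.61, HLA-DMB by 0.49, HLA-DPB1 by 0.48 and the pseudogene HLA-DRB6 by 0.29. CIITA, the coactivator of class II transcription, stood at 6.15, 6.29 and 5.93 at 24 h and at 6.14 in each series at 0 h, and did not pass the test (adjusted p = 0.932).

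Of 14 genes of class I and its loading, 11 fell and none rose, against 5.14% and 4.83% of all genes, with a median change of -0.34. The immunoproteasome subunits moved most. PSMB10 stood at 8.49, 8.95 and 8.82 at 24 h in the 5SGlcNAc, Thiamet-G and DMSO series, against 9.60, 9.68 and 9.71 at 0 h, a change of -0.91 ± 0.11 (limma adjusted p = 0.000138). PSMB9 and PSMB8 fell by 0.64 and 0.60. HLA-B, a class I heavy chain, stood at 12.83, 12.77 and 12.90 at 24 h and at 13.27, 13.35 and 13.32 at 0 h, and HLA-C, HLA-F, HLA-G and HLA-E fell by 0.39, 0.35, 0.33 and 0.27. The loading factors TAPBPL, TAPBP and PSME1 fell by 0.46, 0.31 and 0.22. TAP2, TAP1 and B2M, the class I light chain, did not pass the test, and B2M stood at 14.08, 13.98 and 13.89 at 24 h and at 14.08, 13.99 and 13.98 at 0 h. HLA probe sets share sequence between genes, so the split between family members is uncertain. With a series left out, 5 to 7 class II genes and 5 to 8 class I genes fell.

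**Figure D3:**
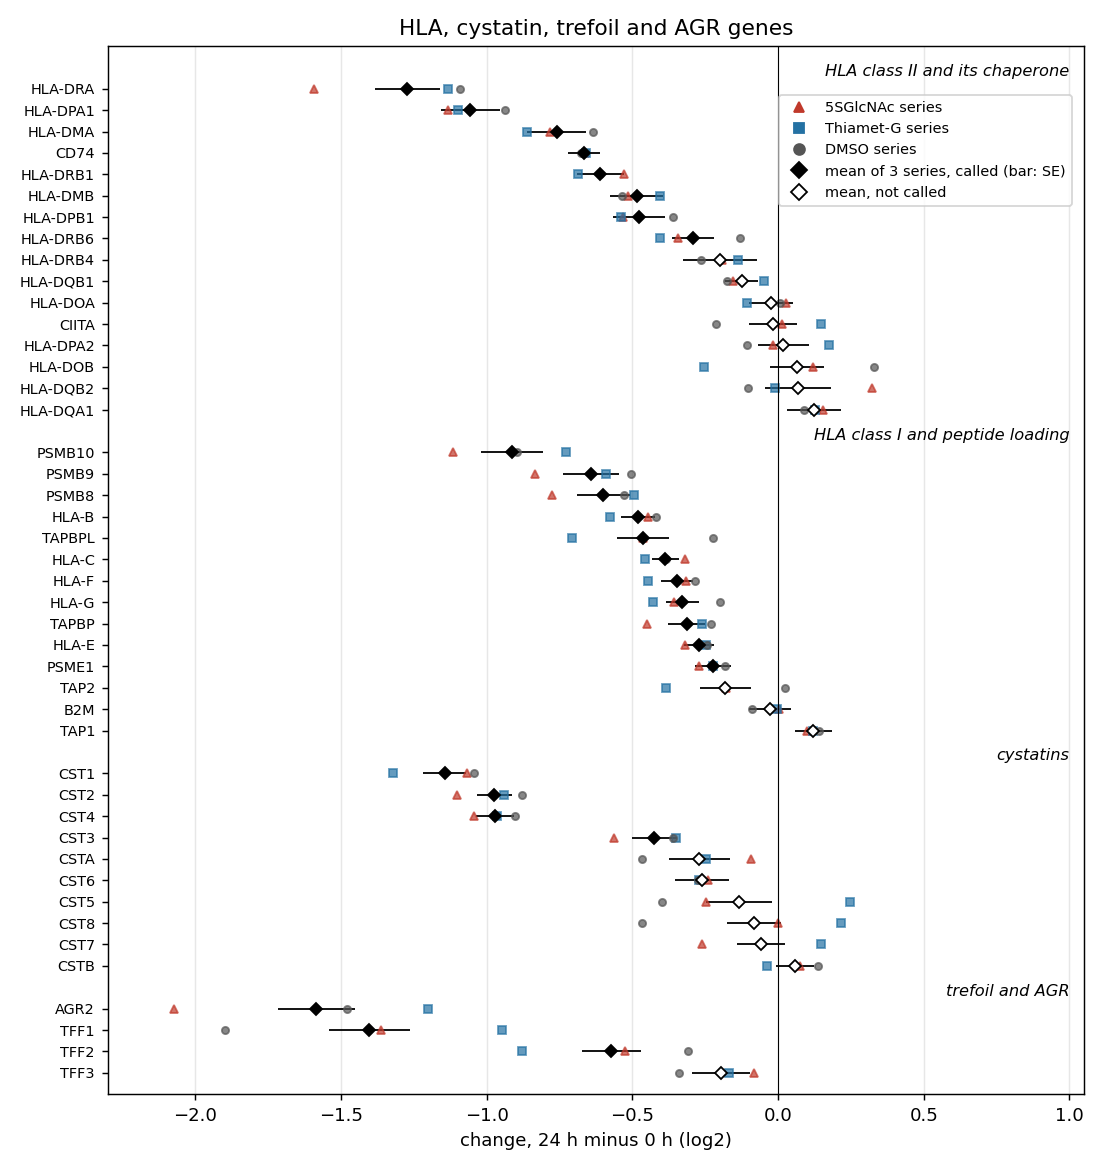
Change from 0 h to 24 h (log2) of the HLA, peptide loading, cystatin, trefoil and AGR genes in each series. The mean of the 3 series is a diamond, filled where the gene passed the threshold. The bar is its standard error from the limma fit, not the spread of the 3 series changes. In the class I and class II groups every filled diamond lies left of 0, from -1.27 for HLA-DRA to -0.22 for PSME1.

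A Y box, the letters CTGATTGG on either strand, is part of the known class II promoter module, and it stands in capitals in the promoter stretches of the class II genes that fell and hold it. Of the 6 class II genes that fell and have a promoter in the RefSeq table (GRCh38.p14), 2 hold these letters within 250 bases before the start, as do 2 of 5 that were not past the threshold and 3.81% of 35093 promoters. The first lies at chr6:32953122-32953229 and the second at chr6:32589849-32589947, both on the minus strand.
HLA-DMA: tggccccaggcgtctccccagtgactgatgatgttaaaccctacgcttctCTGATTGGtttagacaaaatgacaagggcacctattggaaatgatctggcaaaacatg
HLA-DRB1: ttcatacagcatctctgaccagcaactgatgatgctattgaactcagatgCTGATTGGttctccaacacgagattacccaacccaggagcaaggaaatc

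Interferon stimulated genes did not move as one group. Of 31 measured, 2 rose (6.45%, against 4.83% of all genes) and 7 fell (22.6%, against 5.14%), with a median change of 0.03, and PSMB8 and PSMB9 are among the 7. IFIT1, which binds viral RNA lacking a cellular cap, stood at 9.27, 9.54 and 9.35 at 24 h in the 5SGlcNAc, Thiamet-G and DMSO series, against 8.15, 8.09 and 8.12 at 0 h. It was more than 1 unit higher at 24 h in each series and had the largest rise of all genes past the threshold, 1.27 ± 0.26 or 2.41-fold (limma adjusted p = 0.00625). In the 3 fits with a series left out, IFIT1 stayed past the threshold in 1. Its mean change was 0.47 at 2 h, 1.94 at 4 h and 2.32 at 6 h, so the 24 h level lay below the 4 and 6 h levels. IFI44 rose by 0.60. IFITM1, BST2, IFI27, IFI35 and IRF7, membrane or regulatory products of the same list, fell by 0.65, 0.49, 0.53, 0.48 and 0.44. Without the 5SGlcNAc array of 24 h BST2 changed by -0.31 (adjusted p = 0.0392), and it did not pass with any 1 series left out. The list held 3 to 5 falls and 1 or 2 rises with a series left out. IFIT2 and IFIT3 changed by 0.31 and 0.32 without passing the test.

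The interferon response element was searched as GAAANNGAA on both strands. Both genes that rose hold it, as do 3 of 6 that fell and have a promoter, 11 of 16 that were not past the threshold, and 6.88% of all promoters. The promoter stretch of the gene with the largest rise (RefSeq, GRCh38.p14, chr10:89392458-89392566, plus strand) holds it at 2 places, shown in capitals and read on the opposite strand.
IFIT1: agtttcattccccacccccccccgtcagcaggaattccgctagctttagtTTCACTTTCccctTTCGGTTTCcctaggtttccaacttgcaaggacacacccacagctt

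Of 25 inflammatory genes driven by NF-kB, 8 fell (32%, against 5.14% of all genes) and 1 rose (4%, against 4.83%). The list median was -0.11. PTGS2, the inducible cyclooxygenase, stood at 6.21, 6.96 and 6.87 at 24 h in the 5SGlcNAc, Thiamet-G and DMSO series, against 8.01, 8.25 and 8.12 at 0 h, a change of -1.45 ± 0.18 (limma adjusted p = 0.00017). It had first stood higher, by a mean of 0.49 at 2 h and 0.70 at 4 h. The chemokines CXCL8, CXCL1 and CXCL2 fell by 0.58, 0.58 and 0.48, the NF-kB inhibitor TNFAIP3 by 0.47, the adhesion molecule ICAM1 by 0.35, the NF-kB subunit RELB by 0.26 and the adaptor TRAF1 by 0.24. CXCL2 changed by -0.82 and -0.02 in the 5SGlcNAc and Thiamet-G series and by -0.59 in DMSO, and without the 5SGlcNAc series its mean was -0.31 and past no threshold (adjusted p = 0.317). Without the 5SGlcNAc array of 24 h, CXCL8 changed by -0.38 (adjusted p = 0.0633). With a series left out, the list held 1 to 3 falls.

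IL11, a cytokine of the IL-6 family, was the member that rose. It stood at 9.98, 9.74 and 9.92 at 24 h, against 8.80, 8.72 and 8.77 at 0 h in the same series, a change of 1.12 ± 0.17 or 2.18-fold (limma adjusted p = 0.000854). The rise was alike in size in the 3 series, 1.18 and 1.03 under the inhibitors and 1.16 in DMSO. A dimmer probe set of IL11 changed by 0.28. PTX3, a secreted pattern recognition protein, stood at 11.12, 11.19 and 11.05 at 24 h and at 10.49, 10.42 and 10.42 at 0 h, a rise of 0.68 ± 0.10 (limma adjusted p = 0.000854).

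Matrix genes fell in part. Of 37 collagens, matrix proteins and proteases, 11 fell (29.7%, against 5.14% of all genes). The laminin chain LAMB3 was the 1 gene that rose (2.7%, against 4.83%), and the list median was -0.04. This list held 6 to 9 falls and no rise with a series left out. FN1, fibronectin, stood at 11.92, 12.01 and 12.04 at 24 h in the 5SGlcNAc, Thiamet-G and DMSO series, against 12.62, 12.70 and 12.59 at 0 h, a change of -0.65 ± 0.06 (limma adjusted p = 2.17e-05). COL4A1, COL5A1 and COL7A1 fell by 0.63, 0.58 and 0.50, and the metalloprotease inhibitor TIMP1 by 0.26. LUM, a small proteoglycan at a low level, stood at 3.82, 4.60 and 4.50 at 24 h and at 5.29, 5.29 and 5.49 at 0 h. COL6A1 fell by 0.65 in its brightest probe set, but 7 other probe sets changed by -0.15 to 0.18. The labels name 1 established line and no fibroblasts. Of 14 fibroblast markers, 12 lay below the 40th percentile and 2 fell (14.3%), LUM and COL6A3, with a list median of 0.05. Their summed levels were 10.65 to 10.79 at 24 h and 10.90 to 10.94 at 0 h, and their part in the result was not tested. In such bulk samples a fall in a part of the cells and a smaller fall in all cells cannot be told apart.

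Responses to TGF-beta and bone morphogenetic protein (BMP) moved both ways. Of 29 genes, 8 fell (27.6%, against 5.14% of all genes) and 3 rose (10.3%, against 4.83%), with a median of -0.06. With a series left out 3 to 7 fell and 0 or 1 rose. PMEPA1, a TGF-beta target that dampens the pathway, stood at 9.43, 9.80 and 9.69 at 24 h in the 5SGlcNAc, Thiamet-G and DMSO series, against 10.50, 10.67 and 10.61 at 0 h, a change of -0.95 ± 0.08 (limma adjusted p = 7.19e-06). SMAD7, an inhibitory SMAD, INHBA, an activin subunit, and TGFBI, a matrix target, fell by 0.42, 0.64 and 0.36. The BMP target ID1, the decoy receptor BAMBI and the matricellular CCN2 rose by 0.27, 0.45 and 0.20. LTBP1, which holds latent TGF-beta in the matrix and stands outside this list, fell by 1.07 ± 0.09 (limma adjusted p = 4.1e-06).

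Of 20 luminal epithelial markers measured, 8 fell (40%, against 5.14% of all genes) and 2 rose (10%, against 4.83%). The list medians were -0.20 in the 5SGlcNAc series, -0.14 in the Thiamet-G series and -0.23 in DMSO. Their summed level was 14.19 to 14.34 at 24 h and 14.42 to 14.49 at 0 h, and 9 of the 20 lay below the 40th percentile. The luminal list held 4 or 5 falls and 0 or 1 rises with a series left out. AGR2 and TFF1 belong to this list. MUC1, a membrane mucin, fell by 0.58, CLDN7, a tight junction protein, by 0.47, KRT8, a keratin, by 0.29 and GATA3, the luminal transcription factor, by 0.28. EPCAM and CLDN4 rose by 0.22 and 0.30. Without the Thiamet-G series the rise of EPCAM was 0.13 (adjusted p = 0.41). CDH1, E-cadherin, stood at a low 5.22, 5.35 and 4.98 at 24 h and at 5.89, 6.14 and 6.05 at 0 h, and its second probe set changed by 0.27.

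Replication-dependent histone genes are transcribed in S phase, and their messages normally end in a stem-loop without a poly(A) tail. Of 33 measured, 11 rose (33.3%, against 4.83% of all genes) and none fell (against 5.14%). The list medians were 0.15 in the 5SGlcNAc series, 0.36 in the Thiamet-G series and 0.19 in DMSO. H2AC6 stood at 9.73, 9.94 and 9.96 at 24 h, against 9.04, 8.93 and 9.05 at 0 h in the same series, a change of 0.87 ± 0.10 (limma adjusted p = 7.4e-05). H4C8, H1-2, H2BC9, H2BC12 and H2BC6 rose by 0.79, 0.64, 0.64, 0.59 and 0.58. For all 6 the smallest change of the 3 was in the 5SGlcNAc series. With a series left out, 6 to 8 histone genes rose. Members of this family share sequence, so the split among them is uncertain.

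The octamer ATTTGCAT, which H2B promoters are known to carry, was searched on both strands within 250 bases before each start. It was found in 5 of the 6 H2B genes that rose and in 2 of 4 that were not past the threshold, in 1 of the 5 other histone genes that rose and in 5 of 17 that were not past it, and in 1.63% of all RefSeq promoters. It lay 49, 49, 46, 108 and 120 bases before the start in H2BC9, H2BC12, H2BC21, H2BC6 and H2BC3, with a second listed start of H2BC12 at 46. Stretches of the 3 genes with the shorter distances are shown with the octamer in capitals. They lie at chr6:26251515-26251613 on the plus strand, at chr6:27146856-27146954 on the minus strand and at chr1:149886683-149886778 on the minus strand (GRCh38.p14).
H2BC9: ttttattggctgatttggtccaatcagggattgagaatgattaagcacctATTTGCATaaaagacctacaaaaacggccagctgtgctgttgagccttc
H2BC12: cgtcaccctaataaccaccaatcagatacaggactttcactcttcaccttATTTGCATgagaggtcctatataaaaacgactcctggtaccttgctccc
H2BC21: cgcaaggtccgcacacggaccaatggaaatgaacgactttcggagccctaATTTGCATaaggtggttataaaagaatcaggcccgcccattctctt

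Other cell cycle genes changed less. Of 41 mitosis genes, 7 rose (17.1%, against 4.83% of all genes) and none fell (against 5.14%). The list medians were 0.01 in the 5SGlcNAc series, 0.21 in the Thiamet-G series and 0.13 in DMSO. MKI67, the proliferation antigen, stood at 10.40, 10.71 and 10.80 at 24 h, against 10.18, 10.39 and 10.12 at 0 h in the same series, so the groups did not overlap but came close. Its rise of 0.41 was 0.27 without the DMSO series (adjusted p = 0.089), and its 3 other probe sets changed by 0.22, 0.17 and 0.01. BUB1 and CENPE, of the spindle checkpoint and kinetochore, rose by 0.31 and 0.30. Each passed in 1 of the 3 fits with a series left out. The other probe sets of BUB1 changed by 0.39, -0.07, 0.06 and 0.002. Of 40 S phase genes, RRM2, TYMS and ORC6, of nucleotide synthesis and replication origins, rose by 0.34, 0.24 and 0.20 (7.5%, against 4.83% of all genes) and none fell. The median of the S phase list lay on the other side of 0, at -0.05, and was -0.17 in the 5SGlcNAc series, 0.06 in the Thiamet-G series and 0.02 in DMSO. With a series left out, 0 to 5 mitosis genes and 0 or 1 S phase genes rose.

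Targets of NRF2, the transcription factor that KEAP1 holds in check and that drives glutathione and thioredoxin metabolism, had a median change above 0 in all series. Of 36 measured, 11 rose (30.6%, against 4.83% of all genes) and 2, ABCC3 and TXNIP, fell (5.56%, against 5.14%). The share of falls was thus close to that over all genes. The list medians were 0.29 in the 5SGlcNAc series, 0.11 in the Thiamet-G series and 0.10 in DMSO, and 28 of the 36 had a larger change under 5SGlcNAc than in DMSO, against 19 for Thiamet-G. Over all 11963 genes these counts were 5212 and 6122, so the Thiamet-G count was close to the share over all genes. TXNRD1, thioredoxin reductase, stood at 13.63, 12.99 and 13.19 at 24 h in the 5SGlcNAc, Thiamet-G and DMSO series, against 12.60, 12.55 and 12.52 at 0 h, a mean change of 0.71 ± 0.10 (limma adjusted p = 0.000755). In DMSO alone its rise of 0.67 passed the test (adjusted p = 0.0103). SLC7A11, the cystine importer, stood at 11.93, 11.36 and 11.32 at 24 h and at 10.80, 10.87 and 10.82 at 0 h, so the 5SGlcNAc array was highest and the other 24 h arrays were alike. Its mean change was 0.70 ± 0.12 (limma adjusted p = 0.00218).

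Among the other NRF2 targets, NQO1, a quinone reductase, stood at 12.57, 12.19 and 12.25 at 24 h in the 5SGlcNAc, Thiamet-G and DMSO series and at 11.85, 11.80 and 11.87 at 0 h, a rise of 0.50 ± 0.07 (limma adjusted p = 0.000755). ME1, which makes NADPH, rose by 0.63 and changed by 0.82, 0.60 and 0.46 in the same order. GCLM, the modifier subunit of glutamate-cysteine ligase, stood at 12.48, 11.18 and 11.32 at 24 h and at 11.01, 10.97 and 10.97 at 0 h. Its mean change of 0.68 rests on the 5SGlcNAc array of 24 h: without that array it was 0.27 (adjusted p = 0.0435), and without the 5SGlcNAc series 0.28 (adjusted p = 0.134). TRIM16, a ubiquitin ligase, rose by 0.60, and by 0.38 without the 5SGlcNAc series (adjusted p = 0.0716). The catalytic subunit GCLC, the NADPH source IDH1, the redox protein PIR and ferritin light chain FTL rose by 0.47, 0.40, 0.59 and 0.21. With a series left out, 4 to 9 members of the list rose. TXNIP, an inhibitor of thioredoxin, stood at 11.92, 12.27 and 12.22 at 24 h and at 12.51, 12.56 and 12.55 at 0 h.

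**Figure D4:**
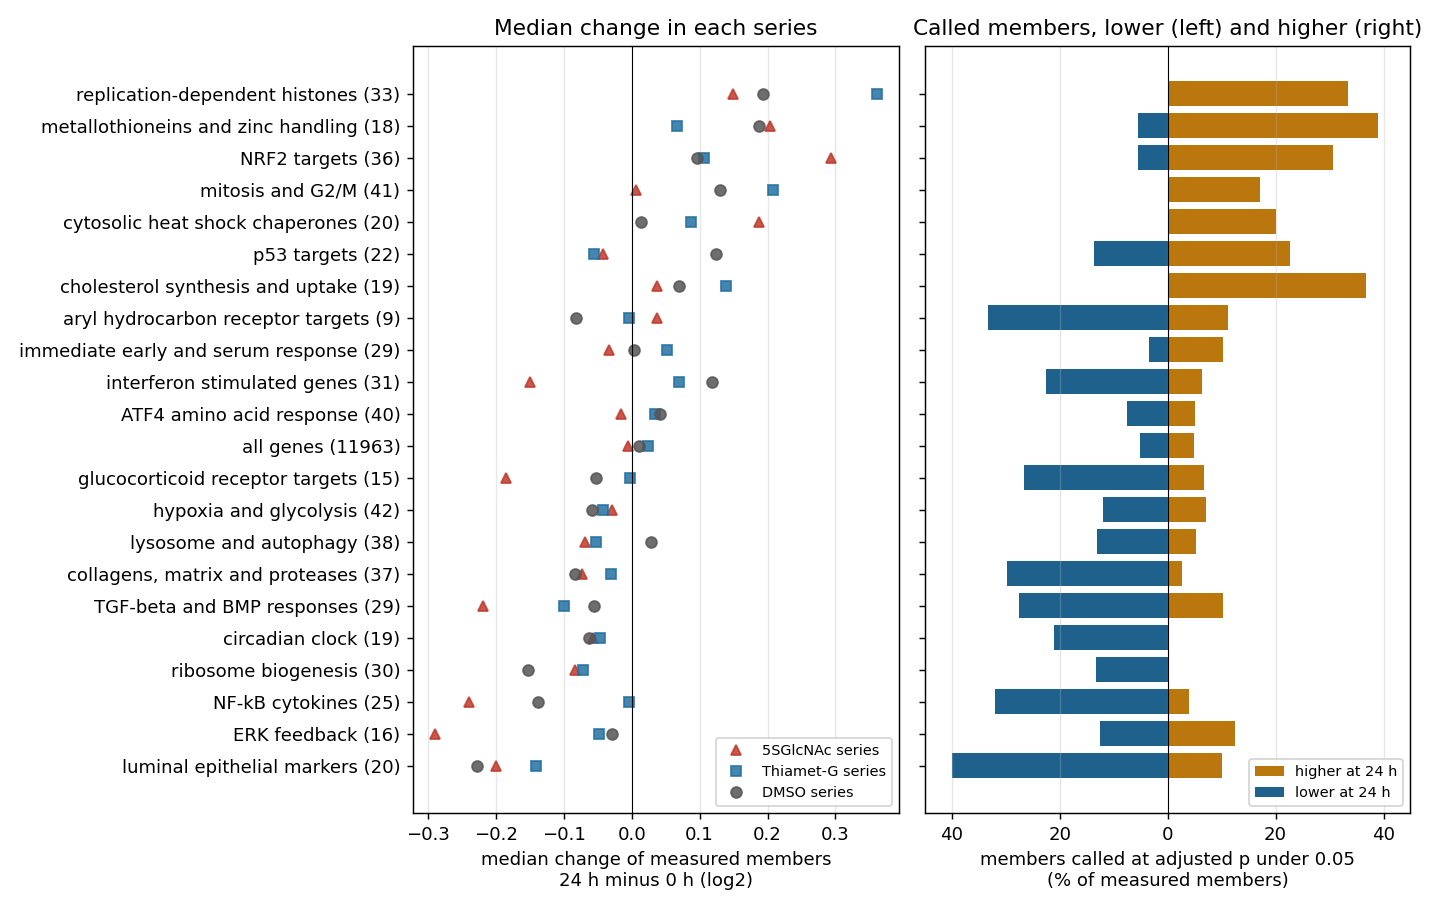
Median change from 0 h to 24 h (log2) in each series for gene lists with 4 or more members past the threshold and for all genes (left), and the share of measured members that fell or rose (right), with the number measured in parentheses. Histone genes lie at 0.15, 0.36 and 0.19 in the 5SGlcNAc, Thiamet-G and DMSO series and luminal markers at -0.20, -0.14 and -0.23.

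Some metallothioneins, small proteins that bind zinc and copper, rose slightly at high levels. Of 18 genes of metal binding and zinc handling, 7 rose (38.9%, against 4.83% of all genes). The zinc importer SLC39A4 was the 1 gene that fell (5.56%, against 5.14%). MT2A stood at 14.49, 14.46 and 14.63 at 24 h in the 5SGlcNAc, Thiamet-G and DMSO series, against 14.26, 14.29 and 14.30 at 0 h, a rise of 0.25 ± 0.05 (limma adjusted p = 0.00764), and the DMSO array was highest. MT1H, MT1G, MT1F, MT1HL1 and MT1X rose by 0.23 to 0.27, and the zinc exporter SLC30A1 by 0.29. A further 3 metallothionein genes did not pass the test. These genes share probe sequence, and a dimmer probe set of MT1G changed by -0.05. The list median of 0.17 ranged from 0.004 to 0.21 over the alternatives tried. With a series left out, 0 to 2 members of the list rose, and without the 5SGlcNAc series SLC39A4 changed by -0.15 (adjusted p = 0.42).

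Sterol and chaperone genes rose in small numbers. Of 19 genes of cholesterol synthesis and uptake, 7 rose (36.8%, against 4.83% of all genes) and none fell (against 5.14%). Among the 7, SC5D, DHCR7, IDI1 and ACAT2 rose by 0.41, 0.30, 0.29 and 0.29. With a series left out, 0 to 2 rose. LSS rose by 0.23, and by 0.15 without the Thiamet-G array of 24 h (adjusted p = 0.145). Of 20 cytosolic heat shock chaperones 4 rose (20%, against 4.83% of all genes) and none fell, and 1 to 3 rose with a series left out. HSPA4L, a nucleotide exchange factor, stood at 10.09, 9.85 and 9.91 at 24 h in the 5SGlcNAc, Thiamet-G and DMSO series and at 9.34, 9.28 and 9.35 at 0 h. Of 28 proteasome genes, PSMD12, PSMD11 and PSMC2 rose by 0.28, 0.26 and 0.19 (10.7%, against 4.83% of all genes) and none fell. Their second probe sets changed by -0.01, -0.06 and -0.14, and with any series left out no proteasome gene rose. UAP1, which makes UDP-GlcNAc, the donor used by OGT, rose by 0.34 and changed by 0.48, 0.26 and 0.27 in the 5SGlcNAc, Thiamet-G and DMSO series.

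Several regulators fell. Of 19 circadian clock genes, BHLHE40, PER2, PER3 and NPAS2 fell (21.1%, against 5.14% of all genes) and none rose (against 4.83%). With a series left out, 1 to 3 fell. BHLHE40, a transcriptional repressor, stood at 9.55, 9.73 and 10.00 at 24 h in the 5SGlcNAc, Thiamet-G and DMSO series, against 10.48, 10.37 and 10.56 at 0 h, a change of -0.71 ± 0.08 (limma adjusted p = 0.00014). NPAS2 changed by -0.14 without the 5SGlcNAc series (adjusted p = 0.511). VEGFA, the vascular growth factor, fell by 0.50 and SLC2A1, a glucose transporter, by 0.28, whereas ADM and HK2 of the same hypoxia and glycolysis list rose by 0.48 and 0.35. That list had 3 rises (7.14%, against 4.83% of all genes) and 5 falls (11.9%, against 5.14%) among 42 genes. It had 0 or 1 rises and 1 or 2 falls with a series left out. Of 9 aryl hydrocarbon receptor targets, 3 fell (33.3%, against 5.14% of all genes) and 1, NQO1, rose (11.1%, against 4.83%). With any series left out, 1 fell.

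The cytochromes CYP1A1 and CYP1B1 of that last list leaned on one series. CYP1B1 stood at 10.84, 11.71 and 11.58 at 24 h in the 5SGlcNAc, Thiamet-G and DMSO series, against 12.13, 12.11 and 12.05 at 0 h. The mean changes were -0.72 for CYP1B1 and -0.71 for CYP1A1. Without the 5SGlcNAc series they were -0.43 (adjusted p = 0.0213) and -0.38 (adjusted p = 0.0842). The glucocorticoid target KLF9 fell by 0.39 in all series together, and without 5SGlcNAc by 0.24 (adjusted p = 0.255).

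Some lists held no gene past the threshold. None of 39 cytosolic ribosomal protein genes and none of 44 respiratory chain genes passed in limma, with medians of -0.02 and -0.01, and 3 and 2 of them had an unadjusted p under 0.05. Of 30 ribosome biogenesis genes 4 fell (13.3%, against 5.14% of all genes) and none rose, and with any series left out 0 fell.

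When the changes arose was read from the mean level at each earlier time, all set against the same 0 h arrays. The genes that fell by 24 h had median changes of -0.05 at 2 h, -0.07 at 4 h, -0.15 at 6 h, -0.18 at 8 h and -0.34 at 24 h. Those that rose had 0.02, 0.04, 0.12, 0.18 and 0.30. Of the 615 falls 297 (48.3%), and of the 578 rises 340 (58.8%), had passed 0.5 of their 24 h change by 8 h. Set against 8 h instead of 0 h, 206 genes were higher at 24 h (1.72%) and 309 lower (2.58%). Of the 1193 genes, 245 also differed from 8 h in the same direction and 2 in the other. The 1193 were chosen by the same 24 h arrays that enter the comparison with 8 h. The shared direction is therefore largely built in and supports nothing.

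Some of the leading falls came late. HLA-DRA stood at a mean of -0.26 from its 0 h level at 8 h and at -1.01 from its 8 h level at 24 h (limma adjusted p = 0.000265). PTGS2 lay 1.21 lower at 24 h than at 8 h (limma adjusted p = 0.00258), and AGR2, HLA-DPA1, SPINK1 and TFF1 changed by -1.07, -0.90, -0.85 and -0.83 against 8 h. The largest rises after 8 h were TRIM16 at 0.67, the growth factor NRG2 at 0.62, SEL1L3 at 0.61, the keratin KRT15 at 0.61, H4C8 at 0.59 and the gap junction protein GJA1 at 0.58. KRT15 and NRG2 did not differ from 0 h (adjusted p = 0.305 and 0.495).

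**Figure D5:**
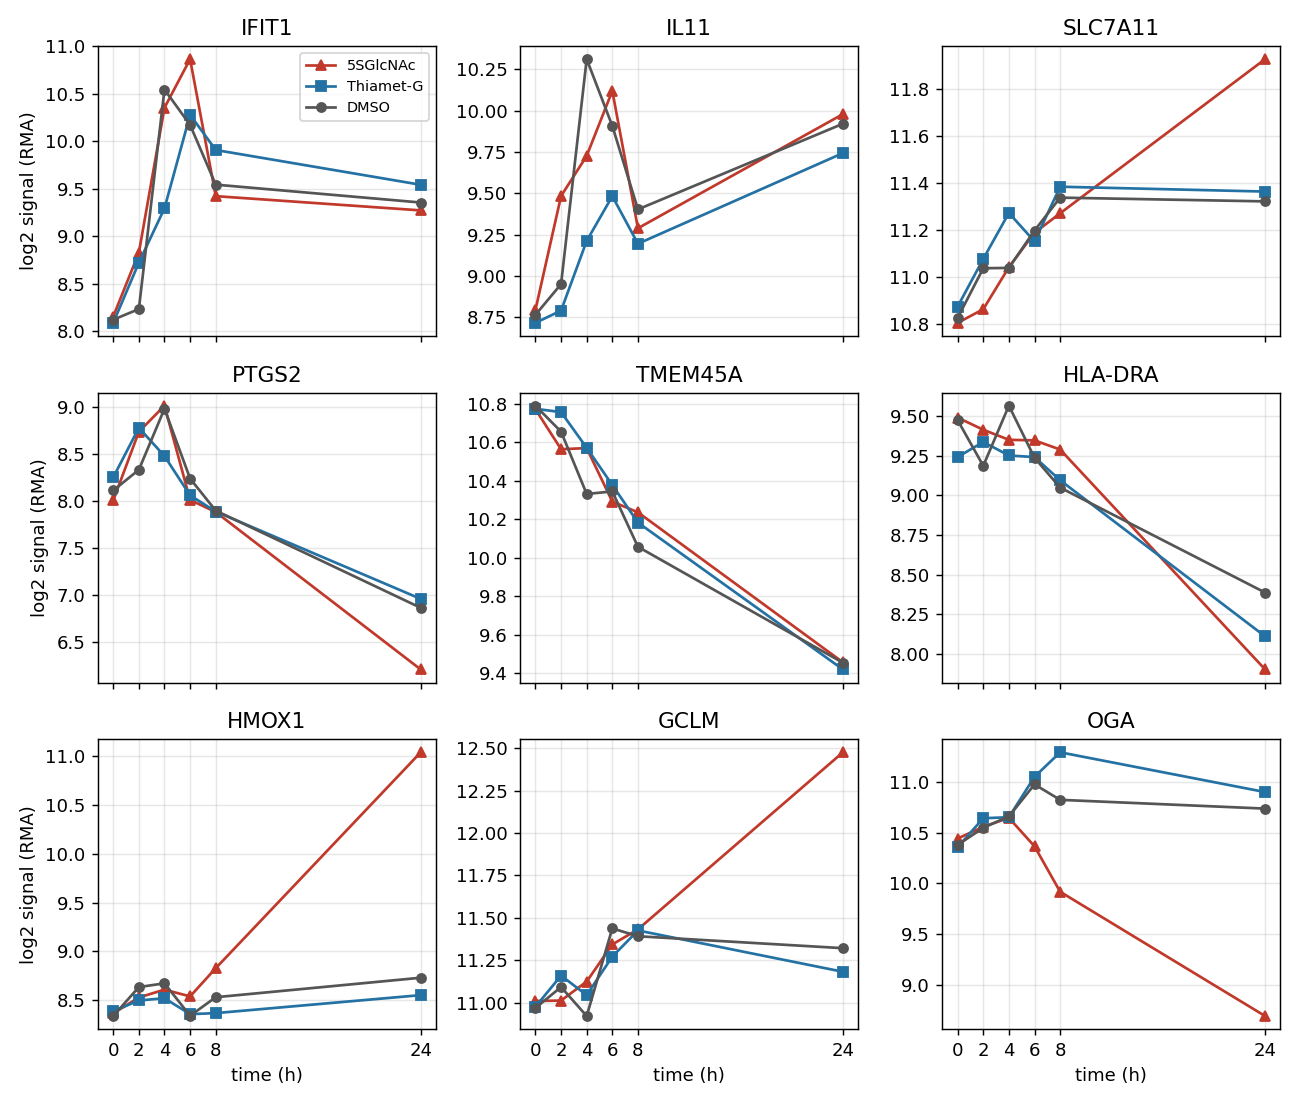
Log2 level of 9 genes at 0, 2, 4, 6, 8 and 24 h in each treatment series, 1 array per point. IFIT1 peaked at 4 or 6 h in all series, PTGS2 stood higher at 2 h than at 0 h and lowest at 24 h, and HMOX1 stood at 11.04 in the 5SGlcNAc series at 24 h with the other series at 8.55 and 8.73.

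The change was then compared between each inhibitor series and DMSO, using the spread at 2 to 8 h. For 5SGlcNAc, 1 gene passed (0.00836% of those tested), with 852 at an unadjusted p under 0.05. For Thiamet-G, none passed (0%), with 642 at an unadjusted p under 0.05. The median standard error of such a difference was 0.18, and each rests on 4 arrays. The gene was HMOX1, heme oxygenase 1, an NRF2 target that degrades heme. It stood at 11.04, 8.55 and 8.73 at 24 h in the 5SGlcNAc, Thiamet-G and DMSO series, against 8.37, 8.39 and 8.34 at 0 h. The 5SGlcNAc array of 24 h lay far above all others, a change of 2.68 or 6.40-fold, against 0.17 in Thiamet-G and 0.39 in DMSO. The difference from DMSO was 2.28 (95% interval 1.82 to 2.75, limma adjusted p = 0.00516) for 5SGlcNAc and -0.23 (-0.69 to 0.24) for Thiamet-G. Over the 3 series the mean change of HMOX1 did not pass the test (adjusted p = 0.0822). Without the 4 h arrays the difference for 5SGlcNAc had an adjusted p of 0.0849.

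Probe sets of the O-GlcNAc enzymes did not move alike. In its brightest probe set OGA stood at 8.69, 10.90 and 10.74 at 24 h in the 5SGlcNAc, Thiamet-G and DMSO series, against 10.44, 10.36 and 10.38 at 0 h, changes of -1.75, 0.54 and 0.36. Its second probe set had a mean change of 0.08 over the 3 series, against -0.28 for the brightest. OGT in its brightest probe set stood at 12.74, 11.36 and 11.53 at 24 h and at 11.62, 11.41 and 11.41 at 0 h. Its mean change over the 3 series was 0.39 there and -0.57 to 0.09 in its 4 other probe sets. Means over 3 series do not show whether the probe sets of either gene differ within the 5SGlcNAc series. Neither gene passed the test over the 3 series (adjusted p = 0.684 and 0.225) or in the difference between 5SGlcNAc and DMSO (0.421 and 0.606). GCLM, SLCO4A1 and ANXA10 had differences from DMSO of 1.11, -1.12 and -0.76 without passing it (adjusted p = 0.183, 0.251 and 0.291). The corresponding differences for Thiamet-G were -0.15, 0.19 and -0.18. For TFF1 the Thiamet-G change minus the DMSO change was 0.95 (95% interval 0.54 to 1.37, adjusted p = 0.501).

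Other probe sets of the named genes did not always follow. The dimmer probe sets of FGFR3, INHBA, MUC1 and BHLHE40 changed by -0.03, -0.18, -0.12 and -0.30, where the brightest ones changed by 0.65, -0.64, -0.58 and -0.71. A dimmer probe set each of HK2, LSS, SC5D and TYMS changed by -0.04, -0.09, 0.07 and -0.03, where the brightest ones changed by 0.35, 0.23, 0.41 and 0.24. For FN1, 3 bright probe sets changed by -0.65 to -0.66 and a pair of dim ones by -0.14 and -0.30. The 3 probe sets of HLA-DPA1 changed by -1.06, -0.91 and -0.67, those of HLA-DRA by -1.27 and -1.08, and those of SLC7A11 by 0.70, 0.63 and 0.63.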

How the data were processed

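RNA of MDA-MB-231 cells was extracted with a column kit and hybridised to Affymetrix human expression arrays, per the labels' protocols. The authors deposited 1 log2 value for each probe set and array. RMA was used, per the submitters' processing notes, and its version is not given in the sources used here. RMA equalises the distributions of arrays processed together, which would conceal a shift shared by most genes. The genome build used for annotation by the authors is not given in the sources used here.

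Of 22277 probe sets, 62 were controls, 19064 named 1 gene, 1043 several and 2108 none. Each of 11963 genes was represented by its brightest probe set over the 18 arrays of 0 to 24 h, and 4310 genes had over 1. Deposited log2 values were tested with lmFit and eBayes (limma 3.58.1, run in R 4.3.3) as a two-sided test, Benjamini-Hochberg adjusted over all genes at 0.05, with time as a factor and treatment series as a block (10 residual degrees of freedom). Each series alone, and the differences from DMSO, were fitted with free levels at 0 and 24 h and the spread of 2 to 8 h (6 residual degrees of freedom). The number of arrays limits the precision. The scripts were tested on simulated data.

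Genes were named by a rule: among genes moving one way in all series, the 15 that rose and the 15 that fell most, up to 6 members past the threshold in each direction from each gene list, 10 fixed genes, the leading differences from DMSO, and the 6 largest changes in each direction against 8 h. Some further list members are named as examples. The arrays compared, the gene lists and the rule were chosen with earlier results of these data known. The HLA, cystatin, SPINK, S100, trefoil and IFIT families, the motifs and the reading of each left-out series were added after the values were seen. Motifs were searched in 35093 RefSeq promoters of GRCh38.p14. Other normalizations, filters, probe set rules, variance models and left-out arrays were tried as alternatives.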

Additional observations from a re-analysis of the deposited data

Results flagged for a closer look

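HMOX1 stands out because its change from 0 h to 24 h differed between the 5SGlcNAc series and the DMSO series by 2.28 (limma, adjusted p = 0.00516). The 5SGlcNAc array of 24 h stood at 11.04 and the DMSO array of 24 h at 8.73, against 8.37 and 8.34 at 0 h. The difference rests on 4 arrays, 1 for each treatment and time. Over the alternatives tried it ranged from 2.28 to 2.36, with adjusted p between 3.33e-07 and 0.972, the highest of them with the spread taken from all 18 arrays, which holds the change of this gene itself.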

How the results depend on the processing

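The 578 rises and 615 falls kept within 1.5 times of these counts under quantile normalization, median centring, the filter on dim genes, both other probe set rules, the other variance model, the fit without the series block and the fit without the 4 h arrays. The 6 arrays alone gave 101 rises and 154 falls, with a spread from those 6. Leaving out 1 series or 1 array gave 104 to 547 rises and 136 to 625 falls. Among single arrays the DMSO array of 0 h moved both counts most, to 278 and 277. With the 5SGlcNAc array of 0 h left out the counts were 347 and 406, with the 5SGlcNAc array of 24 h 547 and 387, and with the Thiamet-G array of 0 h 326 and 440. Of 155 named genes past the threshold, 46 stayed past it whichever series was left out, and 57 stayed past it in none of these 3 fits. The share of rises among the calls was 48.4%, and 53.9% after median centring.

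Counts in single series, which rest on 1 pair of arrays, moved more. Rises and falls were 40 and 99 in DMSO after quantile normalization, 185 and 154 in DMSO, 205 and 473 in 5SGlcNAc, 94 and 174 in Thiamet-G without dim genes, and, under eBayes with a trend and robust variance, 239 and 517 in 5SGlcNAc, 135 and 201 in Thiamet-G, 201 and 177 in DMSO. With the spread of all 18 arrays there were 29 and 126 in 5SGlcNAc, 12 and 42 in Thiamet-G, and 13 rises in DMSO. Thiamet-G gave 21 and 48 without the 4 h arrays, 5SGlcNAc 125 rises after median centring, and DMSO 34 rises with probe sets averaged per gene. The difference between 5SGlcNAc and DMSO gave 2 and 2 genes without dim genes, 4 and 8 with the other variance model, and 0 without the 4 h arrays or with the spread of all 18. The cause of these moves was not tested.

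Reversed signs were seen for GDF15 (0.0812) and MT1G (-0.0534) without probe sets ending in _x_at, and for OGT (-0.0139) and PTPRC (-0.0425) with the mean of probe sets. With an array or series left out, ESR1 ranged from -0.0370 to 0.30, OGA from -0.70 to 0.45 and PTPRC from -0.0345 to 0.11, and none of these passed the test in the 3 series together. The main fit already pairs the 24 h and 0 h arrays of each series by its series block. By replicate number, no paired analysis was possible because only the 48 h labels, which were not used, carry such numbers.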
